A study of Mus musculus with 12 samples.

Results

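The mRNAs described here encode 10 parts of the Notch signalling pathway in keratinocytes, the cells that form most of the epidermis, grown from mouse. They are the receptors Notch1, Notch2 and Notch3, the ligands Jag1, Jag2 and Dll1, the protease Adam17, the nuclear factors Rbpj and Maml1, and the target gene Hes1. They were chosen by symbol from the 54532 genes of the deposited count table, and all 10 were found once each. All 10 were among the 13571 genes with enough counts to be tested. The study compared mRNAs of the translating fraction between the cell cortex and the rest of the cell, with and without a scratch wound. There were 4 groups of 3 libraries, which the labels call biological replicates: the total and the cortical fraction of unwounded cells, and the same fractions of scratch-wounded cells. Every group had the genotype given as WT DP-BirA(1-584), in which residues 1 to 584 of desmoplakin, a desmosome protein, are fused to the biotin ligase BirA. All groups received calcium to start differentiation, doxycycline at 2 µg/mL to switch on the fusion protein, and biotin for 16 h. "Cortical" RNA was held by a neutravidin resin, which binds biotin, and "total" RNA was the remainder after that step, so it is depleted of the cortical part. Both fractions came from the translating part of a sucrose gradient. The labels used here name neither the keratinocyte line nor the number of clones or animals behind it, so p-values measure the spread between these samples.

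Notch receptors are membrane proteins that bind Jagged or Delta ligands on a neighbouring cell. Binding lets a metalloprotease and then gamma-secretase cut the receptor. The freed intracellular part enters the nucleus, joins the DNA-binding protein RBPJ and a Mastermind coactivator, and switches on genes of the Hes and Hey families. In the epidermis the pathway is known for promoting the exit of basal cells into differentiation.

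RBPJ binds DNA at sites that contain TGGGAA, so the promoter windows of the members are shown first for that motif. RefSeq windows (build GRCm38.p6, 250 bases before to 50 bases after each start) were found for 9 of the 10 members, 11 windows in all. The member without a window was Hes1, so its promoter was not searched. TGGGAA or its reverse complement TTCCCA stood in 2 of these 11 windows, and in 25.6% of all 32851 windows of the same length. Both matching windows belonged to Rbpj itself and overlapped. The 2 Rbpj stretches that follow show the matches in capitals with their flanks, on the plus strand of chromosome 5. The 250 bases before the starts of Notch1 and Notch3 are shown because these were the 2 most abundant receptors per length in unwounded cells. These lie on the minus strand of chromosomes 2 and 17 and hold no match. The Notch1 start lies 12841 bases inside the span of the gene in the deposited table. The starts of the 2 Rbpj windows lie 124194 and 124334 bases inside the span of that gene. Of the 250 bases before each Rbpj start, 132 and 250 lie in annotated Rbpj exons.
Rbpj, chr5:53590185-53590214: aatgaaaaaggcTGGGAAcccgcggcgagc
Rbpj, chr5:53590269-53590298: gacgctcgcattTTCCCAggacccctcctc
Notch1, chr2:26503823-26504072: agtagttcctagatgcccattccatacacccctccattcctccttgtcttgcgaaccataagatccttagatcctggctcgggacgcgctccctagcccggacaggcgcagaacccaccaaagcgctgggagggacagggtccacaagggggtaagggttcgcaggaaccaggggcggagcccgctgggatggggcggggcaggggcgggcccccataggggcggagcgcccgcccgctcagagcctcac
Notch3, chr17:32166891-32167140: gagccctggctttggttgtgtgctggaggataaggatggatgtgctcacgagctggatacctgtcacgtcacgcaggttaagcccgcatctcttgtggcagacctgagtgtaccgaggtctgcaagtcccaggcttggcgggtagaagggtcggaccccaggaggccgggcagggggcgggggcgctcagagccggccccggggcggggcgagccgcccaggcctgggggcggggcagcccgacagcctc

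Library totals ran from 8980013 to 23457548 counts, and the members had between 37 and 10364 counts in a library. Wounded total replicate 1 stood apart: of the genes expected at 10 to 20 counts from the other libraries of its group, 41.2% were at 0, against 0.607% to 24.7% in the other 11 libraries. Member values that compare its group are given with and without it. Keratinocyte markers were abundant in every library, with a summed level of 9930 to 20300 CPM over 7 genes (CPM is the count scaled to a common library size with TMM factors). That sum ran from 9930 to 11000 CPM in the unwounded total group and from 20000 to 20300 CPM in the wounded cortical group. The 5 markers of differentiated keratinocytes summed to 40.1 to 40.9 CPM in the unwounded total and 30.9 to 39.6 CPM in the unwounded cortical group, and to 54 to 58.9 and 34.3 to 43.5 CPM in the wounded total and cortical groups, with Flg at 0 counts in all 12 libraries. Over their lists, fibroblast, endothelial, melanocyte and immune markers summed to at most 6.47, 1.87, 2.27 and 0.285 CPM. The part of these marker levels in the results was not tested. In such pooled cells, fewer cells of a kind and less mRNA per cell cannot be told apart.

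Jag2 was the most abundant member in every group when counts were also divided by gene length (CPM per kilobase of the gene length in the deposited table). It stood at 21.2 ± 1.76 CPM per kilobase (SD, n = 3) in the unwounded total group and at 55.5 ± 2.73 in the unwounded cortical group. Its level was 16.9 ± 3.33 CPM per kilobase in the wounded total group and 35.4 ± 2.03 in the wounded cortical group. The lowest Jag2 library lay above the highest library of the next member in all 4 groups. Notch1 was next in unwounded cells, at 8.17 ± 0.304 CPM per kilobase in the total and 9.45 ± 0.559 in the cortical group, and did not overlap Notch3 in either. Notch3 stood at 5.42 ± 0.669 and 7.66 ± 0.16 CPM per kilobase in these groups. In the wounded total group Hes1 (6.01 ± 2.56), Notch3 (4.27 ± 0.751), Notch1 (4.16 ± 0.472) and Maml1 (3.72 ± 1.09 CPM per kilobase) overlapped from each to the next. Adam17 and Jag1 came below Maml1 in every group. Dll1, Notch2 and Rbpj took the last 3 places in each group, between 0.642 and 1.68 CPM per kilobase. Rbpj has a gene length of 12750 bases, against 1578 in its longest annotated coding sequence. Undivided, Rbpj had 11.2 CPM in the unwounded total group, where Hes1 had 10.9 and Jag1 10.7 CPM. Per length, Jag2 exceeded Jag1 11.7 ± 1.8 times in the unwounded total and 19.7 ± 2.04 times in the unwounded cortical group. The same ratio was 12.4 ± 2.65 in the wounded total and 13.5 ± 1.65 in the wounded cortical group. Notch1 exceeded Notch3 in all 3 unwounded total libraries, 1.38, 1.61 and 1.57 times, while in the wounded total libraries the ratio was 0.894, 0.958 and 1.09. The deposited gene lengths were 14232 bases for Notch1 and 8044 for Notch3, while their longest annotated coding sequences had 7593 and 6954 bases. Before division by length, Notch1 had 59.2 ± 6.72 and Notch3 34.4 ± 6.04 CPM in the wounded total group. The order of these receptors there thus depends on the length used.

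**Figure D1:**
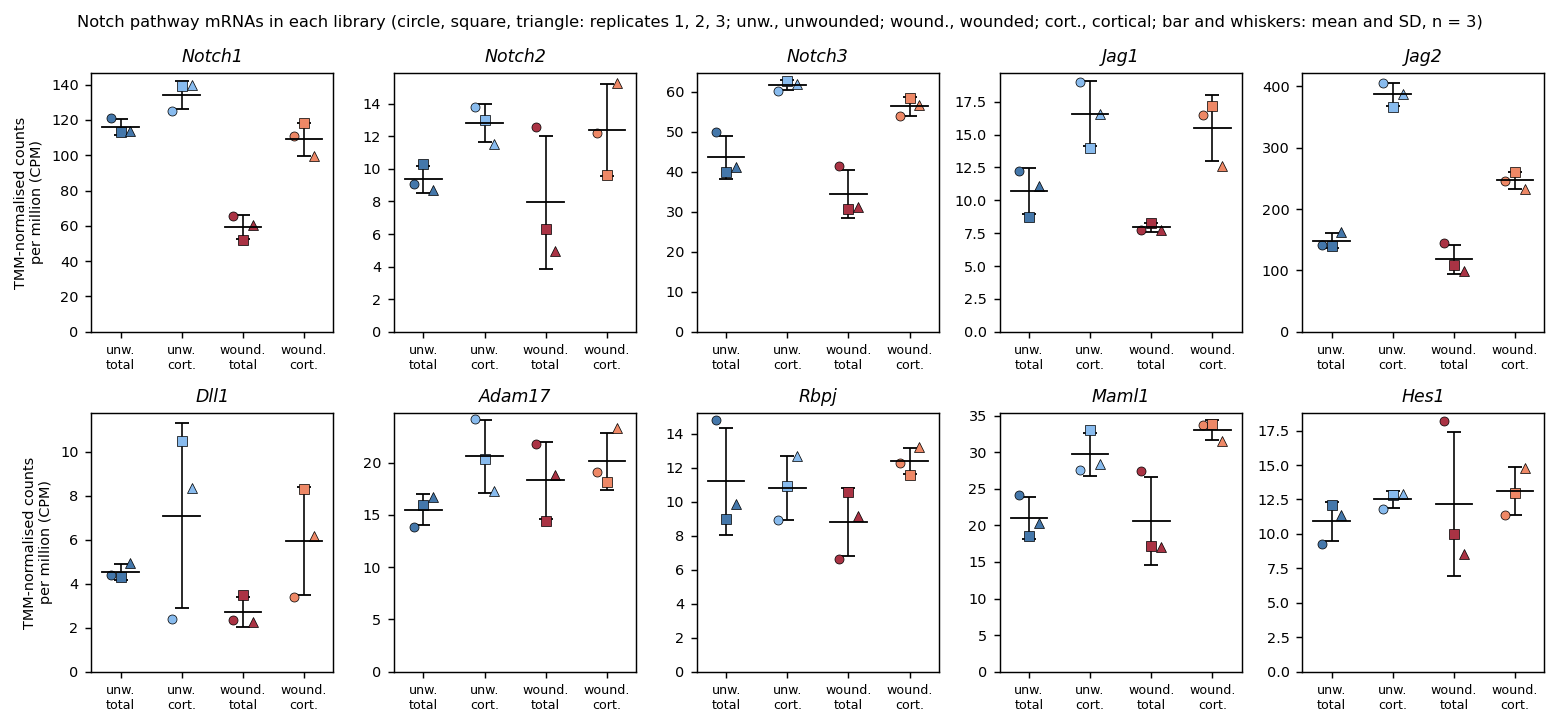
TMM-normalised CPM of each of the 10 members (y axes from 0) in the 4 groups (x axis), one point per library, with the mean and SD of 3 libraries. The Notch1 panel shows all 3 wounded total libraries (52.1 to 65.4 CPM) below the other 9 (99.3 to 140), and the Jag2 panel shows all cortical libraries (233 to 405 CPM) above all total libraries (99.7 to 162).

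Without a wound, the cortical and total fractions were compared to see which mRNAs were richer among those translated near the desmosomal bait. Both Jagged ligands and the receptor Notch3 were higher in the cortical fraction, with Jag2 showing by far the largest difference, 2.62-fold. No member was lower by the test. Of the 10 members, 3 passed in the higher direction at an adjusted p under 0.05 (edgeR's quasi-likelihood test with Benjamini-Hochberg adjustment over all 13571 genes), 0 in the lower direction and 7 did not pass. Among all genes, 14.2% passed, 6.62% higher and 7.59% lower, or 1582 genes higher and 469 lower when scaled by library size alone against 898 and 1030 here. The median log2 fold change was 0.47 over the members and 0.00 over all genes tested.

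Jag2 (ENSMUSG00000002799, mm10 chromosome 12, 112907819 to 112929776, minus strand) encodes Jagged 2, a transmembrane ligand made by basal keratinocytes. Its level was 142, 139 and 162 CPM in the unwounded total libraries and 405, 367 and 387 CPM in the cortical ones. All 3 cortical libraries lay far above all 3 total libraries. The log2 fold change was 1.39 (SE 0.13, adjusted p = 3.87e-06), and it lay between 1.23 and 1.58 in all 25 alternative settings, each of which kept the call.

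Jag1 (ENSMUSG00000027276, chromosome 2, 137081456 to 137116644, minus strand) encodes Jagged 1, the related ligand. It was measured at 12.2, 8.75 and 11.1 CPM in the total and 19, 14 and 16.6 CPM in the cortical libraries. The groups did not overlap, with all cortical libraries above all total ones, as for 7 of the 10 members and 17.1% of all genes (19.1% lay fully below). Its log2 fold change of 0.63 (SE 0.20) was called with an adjusted p of 0.0428, but was not called in 14 of 25 alternatives. Among these was removal of the gene length trend (0.51, adjusted p = 0.118). Without 1 library the adjusted p ran from 0.0188 without wounded total replicate 1 to 0.207 without unwounded total replicate 2. The third ligand, Dll1 (ENSMUSG00000014773, chromosome 17, 15367354 to 15376872, minus strand), which encodes Delta-like 1, had 4.39, 4.29 and 4.95 CPM in the total libraries. In the cortical libraries it had 2.42, 10.5 and 8.34 CPM, so that replicate 1 lay below, and replicates 2 and 3 above, every total library. Its log2 fold change was 0.62 (SE 0.45, adjusted p = 0.442).

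Among the receptors, Notch3 (ENSMUSG00000038146, chromosome 17, 32120820 to 32166880, minus strand) had 49.8, 39.9 and 41.2 CPM in the unwounded total libraries. It had 60.2, 62.7 and 61.9 CPM in the cortical libraries, which all lay above the total ones. The log2 fold change was 0.50 (SE 0.13, adjusted p = 0.0156). That call was lost without unwounded total replicate 2 (adjusted p = 0.085) or 3 (0.0576), without unwounded cortical replicate 2 (0.0562) or 3 (0.0515), and once a trend on gene length was taken out (0.31, adjusted p = 0.0853). Notch1 (ENSMUSG00000026923, chromosome 2, 26457903 to 26516663, minus strand), a receptor known for driving epidermal differentiation, had 121, 113 and 114 CPM in the total and 125, 139 and 140 CPM in the cortical libraries. The cortical values were all higher, by a small margin, with a log2 fold change of 0.21 (SE 0.11, adjusted p = 0.225). Notch2 (ENSMUSG00000027878, chromosome 3, 98013527 to 98150361, plus strand) had 9.08, 10.3 and 8.72 CPM in the total and 13.8, 13 and 11.5 CPM in the cortical libraries. It too did not overlap, with a log2 fold change of 0.45 (SE 0.29, adjusted p = 0.36).

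Adam17 (ENSMUSG00000052593, chromosome 12, 21323509 to 21373632, minus strand) encodes a surface metalloprotease that can cut Notch receptors and sheds growth factors. It had 13.8, 15.9 and 16.7 CPM in the unwounded total and 24.2, 20.3 and 17.3 CPM in the cortical libraries (log2 fold change 0.42, SE 0.19, adjusted p = 0.15). In the annotation 311 exonic bases of Adam17 overlap Iah1 on the other strand, which had 7548 counts over the 12 libraries. The libraries carried no strand, so Adam17 counts near that overlap are uncertain. Maml1 (ENSMUSG00000050567, chromosome 11, 50255634 to 50292311, minus strand), a Mastermind coactivator, had 24.2, 18.5 and 20.4 CPM in the total and 27.6, 33.1 and 28.4 CPM in the cortical libraries. Again the cortical libraries all lay higher, with a log2 fold change of 0.49 (SE 0.18, adjusted p = 0.0779). It passed without wounded total replicate 1, a library that is in neither unwounded group (0.49, adjusted p = 0.0102). That fit redid the filter, the scaling, the shared spread and the adjustment. Calls over all genes in this comparison rose there too, from 1928 of 13571 to 3151 of 14073. Rbpj (ENSMUSG00000039191, chromosome 5, 53466152 to 53657362, plus strand), the DNA-binding partner, had 14.8, 8.98 and 9.84 CPM in the total and 8.91, 10.9 and 12.7 CPM in the cortical libraries. These overlapped, and the log2 fold change was -0.06 (SE 0.24, adjusted p = 0.928), or 0.12 when scaled by library size alone. Hes1 (ENSMUSG00000022528, chromosome 16, 30064384 to 30067796, plus strand), a transcriptional repressor and direct target, had 9.3, 12.1 and 11.4 CPM in the total and 11.8, 12.8 and 12.9 CPM in the cortical libraries. Its ranges overlapped too (log2 fold change 0.20, SE 0.25, adjusted p = 0.717).

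In wounded cells the same comparison called 5 members higher in the cortical fraction: Notch1, Notch3, Jag1, Jag2 and Maml1. None was called lower, and 5 did not pass. Of all genes, 15.7% passed, 7.62% higher and 8.03% lower, or 2203 genes higher and 520 lower when scaled by library size alone against 1034 and 1090 here. Scaling by library size alone moved the median of all genes to 0.252 here and to 0.19 in unwounded cells, and under it Rbpj (0.73, adjusted p = 0.0438) and Dll1 (1.35, adjusted p = 0.0477) were called too. The median log2 fold change was 0.70 over the members and 0.04 over all genes tested. Without wounded total replicate 1 the count was 6, with Notch2 added. Calls over all genes rose as well without that library, to 1697 higher and 1778 lower of 14073.

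Wounded total libraries held Notch1 at 65.4, 52.1 and 60.2 CPM and the wounded cortical libraries at 111, 118 and 99.3 CPM. The lowest cortical library lay well above the highest total library. All cortical libraries lay above all total ones for 6 of the 10 members and 16.2% of all genes (12.9% lay fully below). The log2 fold change was 0.89 (SE 0.11, adjusted p = 0.000176), and 0.96 without wounded total replicate 1 (adjusted p = 3.26e-07). Under a correction for gene length it was 0.57 (adjusted p = 0.0019). Notch3 stood at 41.4, 30.7 and 31.1 CPM in the total and 53.9, 58.5 and 56.6 CPM in the cortical libraries. This receptor also separated fully by fraction (log2 fold change 0.71, SE 0.13, adjusted p = 0.00194, and 0.86, adjusted p = 1.01e-05, without wounded total replicate 1). Notch2 had 12.6, 6.29 and 4.97 CPM in the total and 12.2, 9.62 and 15.3 CPM in the cortical libraries, and only total replicate 1 reached the cortical range. Its log2 fold change was 0.64 (SE 0.29, adjusted p = 0.148), but 1.13 (adjusted p = 0.00119) without that library.

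Jag2 was measured at 144, 109 and 99.7 CPM in the wounded total and 246, 261 and 233 CPM in the wounded cortical libraries. Its log2 fold change was 1.07 (SE 0.13, adjusted p = 0.000145), and 1.24 without wounded total replicate 1 (adjusted p = 6.36e-09). Jag1 had 7.77, 8.31 and 7.72 CPM in the total and 16.5, 17.2 and 12.6 CPM in the cortical libraries. The ligand thus did not overlap between fractions in either treatment, and here its log2 fold change was 0.96 (SE 0.20, adjusted p = 0.00461), called in all 25 alternatives and 0.94 (adjusted p = 0.0026) without wounded total replicate 1. Dll1 stood at 2.37, 3.48 and 2.27 CPM in the total and 3.38, 8.3 and 6.17 CPM in the cortical libraries. Cortical replicate 1 was again the low one, and the log2 fold change of 1.13 had an SE of 0.46 (adjusted p = 0.11), or 1.03 without wounded total replicate 1 (adjusted p = 0.116). Dll1 passed without unwounded cortical replicate 1 (1.13, adjusted p = 0.0443).

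Of the nuclear factors, Maml1 had 27.5, 17.2 and 17 CPM in the wounded total and 33.7, 33.9 and 31.5 CPM in the wounded cortical libraries. Its log2 fold change was 0.68 (SE 0.18, adjusted p = 0.0164). Without wounded total replicate 1, the highest of its group, it was 0.95 (adjusted p = 6.10e-05). The call was lost without wounded total replicate 2 (adjusted p = 0.0923) or 3 (0.0747) and without wounded cortical replicate 1 (0.0534) or 2 (0.0534). Rbpj had 6.65, 10.6 and 9.13 CPM in the total and 12.3, 11.6 and 13.2 CPM in the cortical libraries, without overlap (log2 fold change 0.49, SE 0.24, adjusted p = 0.185). The lowest Rbpj value was that of total replicate 1, and without it the log2 fold change was 0.32 (adjusted p = 0.367). Adam17 stood at 21.8, 14.4 and 18.8 CPM in the total and 19.1, 18.1 and 23.3 CPM in the cortical libraries (0.14, SE 0.18, adjusted p = 0.685, or 0.28, adjusted p = 0.32, without total replicate 1). Hes1 had 18.2, 9.99 and 8.52 CPM in the total and 11.4, 13 and 14.8 CPM in the cortical libraries (0.09, SE 0.25, adjusted p = 0.856). Total replicate 1 held the highest Hes1 value of all 12 libraries, and without it the log2 fold change was 0.49 (adjusted p = 0.099).

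**Figure D2:**
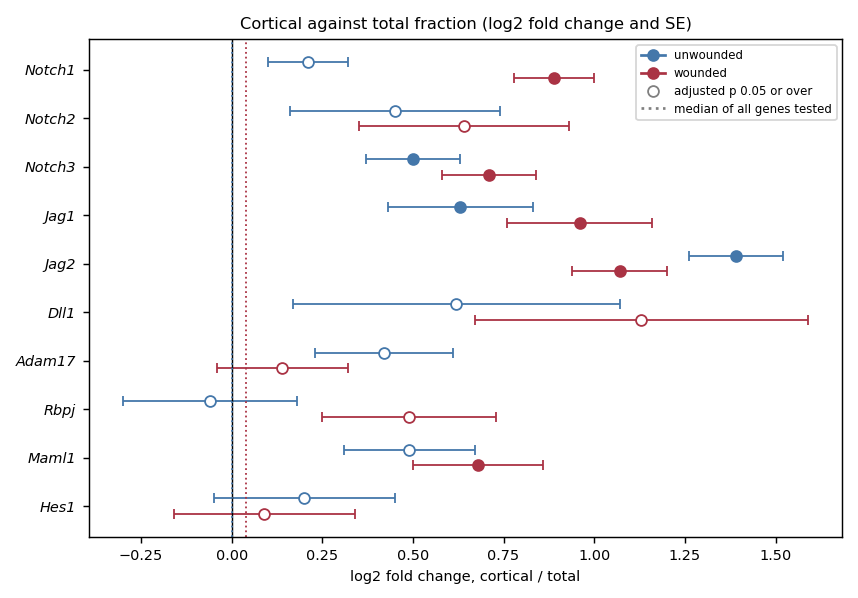
Log2 fold change of the cortical against the total fraction (x axis) for each member (y axis) in unwounded and wounded cells, with the SE as whiskers, and the median of all genes as dotted lines. Filled points passed at an adjusted p under 0.05: Jag2, Jag1 and Notch3 in both treatments, and Notch1 and Maml1 in wounded cells.

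The cortical fraction was richer in mRNAs with long coding sequences across all genes. The part of coding length in the member values was not tested. The longest annotated coding sequences of Notch1, Notch2 and Notch3 had 7593, 7419 and 6954 bases, those of Jag2 and Jag1 3741 and 3654 bases, and that of Hes1 846 bases. The tested coding genes were put in 10 bins of 1148 or 1149 genes by coding length. In the bin with the longest coding sequences (3483 to 25434 bases), the median log2 fold change was 0.36 in unwounded and 0.43 in wounded cells. It was -0.40 and -0.44 in the bin with the shortest (111 to 522 bases). Jag2 lay above the median of its bin in both treatments, at 1.39 and 1.07, while Notch1 lay below it in unwounded cells (0.21) and above it in wounded cells (0.89). Hes1, among short genes with medians of -0.17 and -0.12, had values of 0.20 and 0.09. After each library was corrected for a trend on gene length, Jag2 was the only member called in unwounded cells (1.23, adjusted p = 7.01e-07), where Notch1 had a value of -0.08 (adjusted p = 0.734). In wounded cells all 5 calls held under that correction, which used the gene length of the deposited table and not the coding length.

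**Figure D3:**
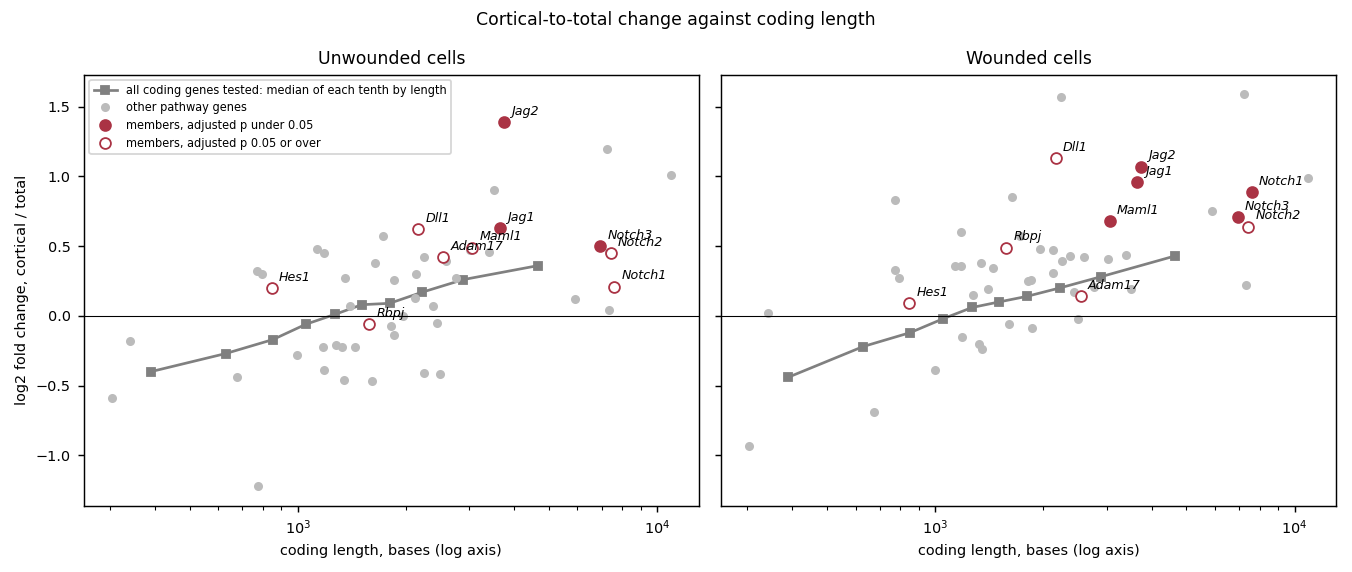
Log2 fold change of the cortical against the total fraction (y axis) against coding length in bases (log x axis) in unwounded and wounded cells. Squares joined by a line are medians of all tested coding genes in 10 bins by length, rising from -0.40 to 0.36 and from -0.44 to 0.43, grey dots are the further pathway genes, and Jag2 stands at 1.39 and 1.07.

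Wounding was compared within each fraction. In the total fraction Notch1 fell to 0.509 of its unwounded level, the sole member called. In the cortical fraction Jag2 fell to 0.638 of its unwounded level, again the sole member called. No member was called higher in either fraction. Each group enters 2 of these 4 comparisons, so the wounded total libraries that gave Notch1 its lower level also gave its higher cortical value in wounded cells. Of all genes, 15.6% passed in the total fraction (8.39% higher, 7.2% lower) and 2.48% in the cortical fraction (1.6% higher, 0.884% lower). Scaled by library size alone, the calls were 708 higher and 1104 lower against 1139 and 977 in the total fraction, and 108 and 91 against 217 and 120 in the cortical fraction. The wounded libraries lay fully below the unwounded ones for 3 of the 10 members in each fraction, against 17.6% of all genes in the total and 11.5% in the cortical fraction, and fully above for 0 members, against 14.5% and 15.4%. The median log2 fold change over the members was -0.34 in the total and -0.08 in the cortical fraction, against -0.03 and 0.02 over all genes tested.

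Unwounded total libraries held Notch1 at 113 to 121 CPM and wounded total libraries at 52.1 to 65.4 CPM. The highest wounded value was well below the lowest unwounded one. The log2 fold change was -0.97 (SE 0.11, adjusted p = 2.69e-05), between -1.12 and -0.81 in 25 alternatives that all kept the call, and -1.05 without wounded total replicate 1 (adjusted p = 1.81e-07). Markers of differentiated keratinocytes moved with this comparison: their sum was 40.1 to 40.9 CPM in the unwounded and 54 to 58.9 CPM in the wounded total libraries, without overlap. Of the 4 that could be tested, Ivl was called higher (0.72, adjusted p = 0.0465), with 12.3, 9.09 and 12.5 CPM before and 26.2, 14.1 and 15.4 CPM after wounding, the highest in wounded total replicate 1. Krt10 (0.47, adjusted p = 0.0615), Krt1 (0.65, adjusted p = 0.752) and Lor (-0.06, adjusted p = 0.954) did not pass. The sum of the 7 keratinocyte markers rose as well, from 9930 to 11000 CPM in the unwounded to 16600 to 19000 CPM in the wounded total libraries. Among them Krt14 (1.04, adjusted p = 7.85e-05), Krt5 (0.67, adjusted p = 0.00035) and Perp (0.30, adjusted p = 0.0422) were called higher. Trp63, Dsg3, Dsc3 and Cdh1 did not pass. The part of either marker list in the Notch1 result was not tested. In the cortical fraction Notch1 had 125 to 140 CPM before and 99.3 to 118 CPM after wounding, without overlap. That log2 fold change was -0.30 (SE 0.11, adjusted p = 0.15). It passed without wounded total replicate 1 (adjusted p = 0.0429), a library that is in neither cortical group. Calls over all genes in this comparison rose without that library too, from 337 of 13571 to 1276 of 14073. The difference between the fractions was tested as an interaction, that is, as the cortical against total log2 fold change after wounding minus the same value without a wound. It was 0.68 for Notch1 (SE 0.15, unadjusted p = 0.000337, adjusted p = 0.169), so it did not pass over all genes, of which 0.125% did (0.0221% higher, 0.103% lower). The Notch1 interaction passed without wounded total replicate 1 (0.75, adjusted p = 0.00436), with DESeq2 (0.63, adjusted p = 0.0337), with no count filter (0.66, adjusted p = 0.0357) and with library quality weights (0.81, adjusted p = 0.000764). Interaction calls over all genes rose in these settings too, from 17 to 413, 72, 138 and 855 in that order. Over the 24 alternatives of the Notch1 interaction the adjusted p ran from 0.000764 to 0.537. By edgeR 0 of the 10 members passed the interaction and 1, Notch1, had an unadjusted p under 0.05, as had 9.05% of all genes. DESeq2 passed 1.

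Jag2 showed the other order of the fractions. Its cortical level was 367 to 405 CPM in unwounded and 233 to 261 CPM in wounded cells, a log2 fold change of -0.65 (SE 0.12, adjusted p = 0.0109). That call was lost, with values of -0.65 to -0.61, without unwounded cortical replicate 1 (adjusted p = 0.0568), wounded cortical replicate 1 (0.0582) or wounded cortical replicate 3 (0.0653). In the total fraction Jag2 had 139 to 162 CPM before and 99.7 to 144 CPM after wounding (-0.33, SE 0.13, adjusted p = 0.0915). Only wounded total replicate 1 reached the unwounded range, and without it the value was -0.50 (adjusted p = 0.000476). The interaction for Jag2 was -0.32 (SE 0.18, adjusted p = 0.633), and -0.15 without wounded total replicate 1 (adjusted p = 0.626). Per length, the ratio of Jag2 to Notch1 was 2.6 ± 0.259 in the unwounded total and 4.06 ± 0.592 in the wounded total group. It was 5.9 ± 0.628 in the unwounded cortical and 4.61 ± 0.156 in the wounded cortical group.

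The remaining members had values that did not pass. Notch3 had a log2 fold change of -0.34 on wounding in the total fraction (SE 0.13, adjusted p = 0.0846) and -0.13 in the cortical fraction (SE 0.13, adjusted p = 0.675). Without wounded total replicate 1 the value in the total fraction was -0.50 (adjusted p = 0.00366). Notch2 likewise was at -0.24 (SE 0.29, adjusted p = 0.652) with that library and -0.73 (adjusted p = 0.0292) without it, so 4 members were called lower in the total fraction when it was left out: Notch1, Notch2, Notch3 and Jag2. Calls over all genes rose as well without that library, to 1615 lower and 1887 higher of 14073, from 977 and 1139 of 13571. Jag1, whose 3 wounded total libraries all lay below the unwounded ones, had -0.43 (SE 0.20, adjusted p = 0.167) in the total and -0.10 (SE 0.20, adjusted p = 0.854) in the cortical fraction. For Dll1 the values were -0.74 (SE 0.46, adjusted p = 0.311) and -0.24 (SE 0.45, adjusted p = 0.849). Hes1, the readout gene of the pathway, had 0.17 (SE 0.25, adjusted p = 0.717) and 0.06 (SE 0.25, adjusted p = 0.936). Without wounded total replicate 1 its value in the total fraction was -0.23 (adjusted p = 0.487), so the sign rested on that library. Maml1, Rbpj and Adam17 lay between -0.35 and 0.25 in both fractions, with adjusted p of 0.369 to 0.948. Leaving out wounded total replicate 1 gave -0.30 for Maml1, -0.19 for Rbpj and 0.10 for Adam17 in the total fraction (adjusted p = 0.17, 0.643 and 0.76), and -0.42 for Jag1 and -0.66 for Dll1 (adjusted p = 0.187 and 0.354).

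**Figure D4:**
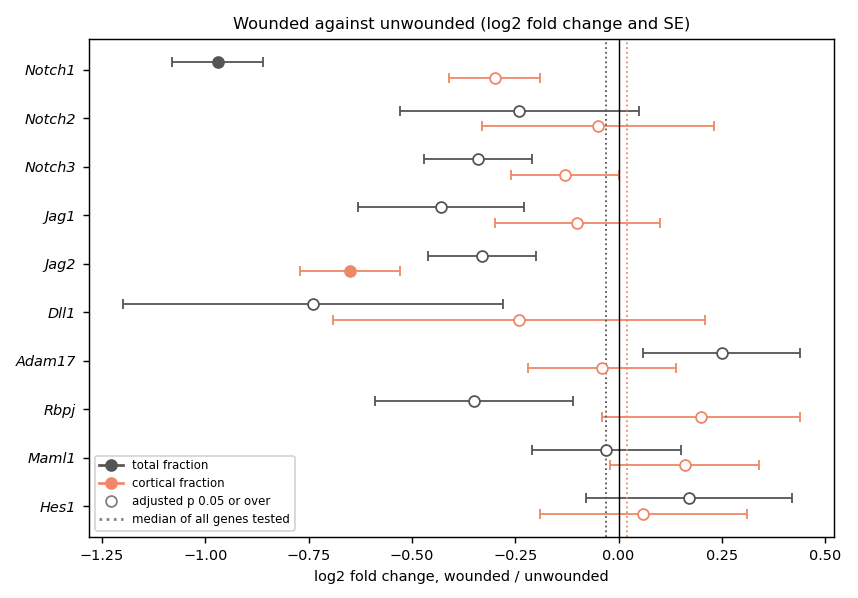
Log2 fold change of wounded against unwounded cells (x axis) for each member (y axis) in the total and the cortical fraction, with the SE as whiskers, and the median of all genes as dotted lines. The filled points are Notch1 in the total fraction (-0.97) and Jag2 in the cortical fraction (-0.65), and the open points did not pass at an adjusted p under 0.05.

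A further list of 53 Notch pathway genes was followed in the same fits, and 42 of them had enough counts to be tested. In unwounded cells 9 of the 42 were called higher and 2 lower in the cortical fraction. Of all genes 6.62% passed higher and 7.59% lower there. In wounded cells 12 of the 42 were called higher and 2 lower, against 7.62% and 8.03% of all genes. The median log2 fold change of the list was 0.10 and 0.34. Wounding gave 2 higher and 2 lower calls in the total fraction, against 8.39% and 7.2% of all genes, and 1 higher and 0 lower calls in the cortical fraction, against 1.6% and 0.884%. These wound counts do not set the list apart from all genes. The interaction gave 0 calls, with 3 of the 42 genes at an unadjusted p under 0.05, against 9.05% of all genes. With gene length corrected, the list gave 6 higher and 2 lower calls in unwounded and 5 higher and 1 lower in wounded cells. Over all 13571 genes that correction gave 569 higher and 828 lower calls in unwounded, and 473 and 786 in wounded cells. Without wounded total replicate 1 the list gave 14 and 18 calls for the cortical comparisons, 10 and 8 for wounding, and 3 for the interaction. Calls over all genes rose as well without that library, to 3151, 3475, 3502, 1276 and 413 of 14073 in the same order.

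Of 13 nuclear cofactors tested, 5 were called higher and 1 lower in the unwounded cortical fraction, and 4 higher and 0 lower in the wounded one. The shares over all genes were 6.62% higher and 7.59% lower in unwounded, and 7.62% and 8.03% in wounded cells. Ep300, a histone acetyltransferase recruited by the Notch complex, rose from 10.8 ± 1.05 to 24.8 ± 1.72 CPM in unwounded cells (log2 fold change 1.20, SE 0.23, adjusted p = 0.00283). In wounded cells it rose from 5.57 ± 1.87 to 16.9 ± 4.19 CPM (1.59, SE 0.24, adjusted p = 7e-04), with a log2 fold change of 1.34 without wounded total replicate 1 (adjusted p = 4.5e-05). Wounding lowered Ep300 in the total fraction (-0.95, SE 0.24, adjusted p = 0.0142), with a value of -0.70 without wounded total replicate 1 (adjusted p = 0.018). That call was lost in 4 of 25 alternatives: without unwounded total replicate 3 (-0.87, adjusted p = 0.0532), with only the groups compared (-0.94, adjusted p = 0.0686), and with limma on log2(FPKM + 0.1) (-0.81, adjusted p = 0.0604) or log2(FPKM + 1) (-0.33, adjusted p = 0.0914). Ncor1, which encodes a corepressor, was higher in the cortical fraction of both treatments. It went from 66.3 ± 4.17 to 91.4 ± 2.32 CPM (0.46, SE 0.10, adjusted p = 0.00719) and from 57.3 ± 6.9 to 88.8 ± 3.2 CPM (0.63, SE 0.11, adjusted p = 0.00114, or 0.70 without wounded total replicate 1). With gene length corrected, Ncor1 was not called in unwounded cells (0.19, adjusted p = 0.251).

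Maml2, a Mastermind paralog of Maml1, rose from 19.3 ± 2.33 to 36.1 ± 1.19 CPM in the unwounded cortical fraction (0.90, SE 0.18, adjusted p = 0.0038). In wounded cells it had 26.6 ± 7.19 CPM in the total and 30.4 ± 5.72 CPM in the cortical group (0.19, SE 0.18, adjusted p = 0.537). The difference between the treatments had an adjusted p of 0.403. Kat2a, which encodes the acetyltransferase GCN5, fell on wounding in the total fraction from 112 ± 2.49 to 72.1 ± 1.96 CPM (-0.64, SE 0.11, adjusted p = 0.000794, or -0.61 without wounded total replicate 1). Cir1, which encodes a corepressor that binds RBPJ, rose on wounding from 8.53 ± 2.83 to 20.2 ± 1.16 CPM in the total fraction (1.23, SE 0.24, adjusted p = 0.00254, or 1.24 without wounded total replicate 1).

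Of the 8 cleavage genes tested, 1 was called higher and 1 lower in the unwounded cortical fraction, and 3 higher and 1 lower in the wounded one. The unwounded counts are close to the shares over all genes, 6.62% higher and 7.59% lower, and in wounded cells those shares were 7.62% and 8.03%. The gene that was lower in both was Psenen, a small gamma-secretase subunit with a coding length of 303 bases, named here after its values were seen (-0.59, adjusted p = 0.0487 and -0.93, adjusted p = 0.0041). Its call in unwounded cells was lost in 16 of 25 alternatives. The metalloprotease gene Adam10, likewise named after its values were seen, was higher in both (0.42, adjusted p = 0.0393 and 0.39, adjusted p = 0.0478), calls lost in 12 and 19 of 25 alternatives. Ncstn (0.47) and Aph1b (0.83), both gamma-secretase subunit genes, were the further higher calls in wounded cells, that of Ncstn lost in 16 of 25 alternatives. Among 12 genes of ligand endocytosis and receptor turnover, 2 were called higher in each treatment, the same pair of ubiquitin ligase genes Mib1 and Neurl1a. Out of 25 alternatives, Mib1 lost its call in 4 in unwounded and 8 in wounded cells, and Neurl1a in 2 and 4. Of 5 genes of receptor maturation, Pofut1, which encodes an enzyme that adds fucose to Notch, was called higher in both treatments, calls lost in 10 and 2 of 25 alternatives. In wounded cells the proprotein convertase gene Furin was called higher (0.43) and the glycosyltransferase gene Rfng lower (-0.39), calls lost in 5 and 7 of 25 alternatives. These genes, too, were named after their values were seen. So was Dtx2, a Deltex gene, the single gene of the list called higher on wounding in both fractions (0.44 in the total and 0.49 in the cortical fraction), calls lost in 2 and 7 of 25 alternatives. The direct targets Hes5, Hey2 and Heyl had 0 counts in every library and Hey1 had at most 11, below the level needed for a test. Nrarp and Hes7, the 2 tested targets, were not called in any of the 5 comparisons.

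**Figure D5:**
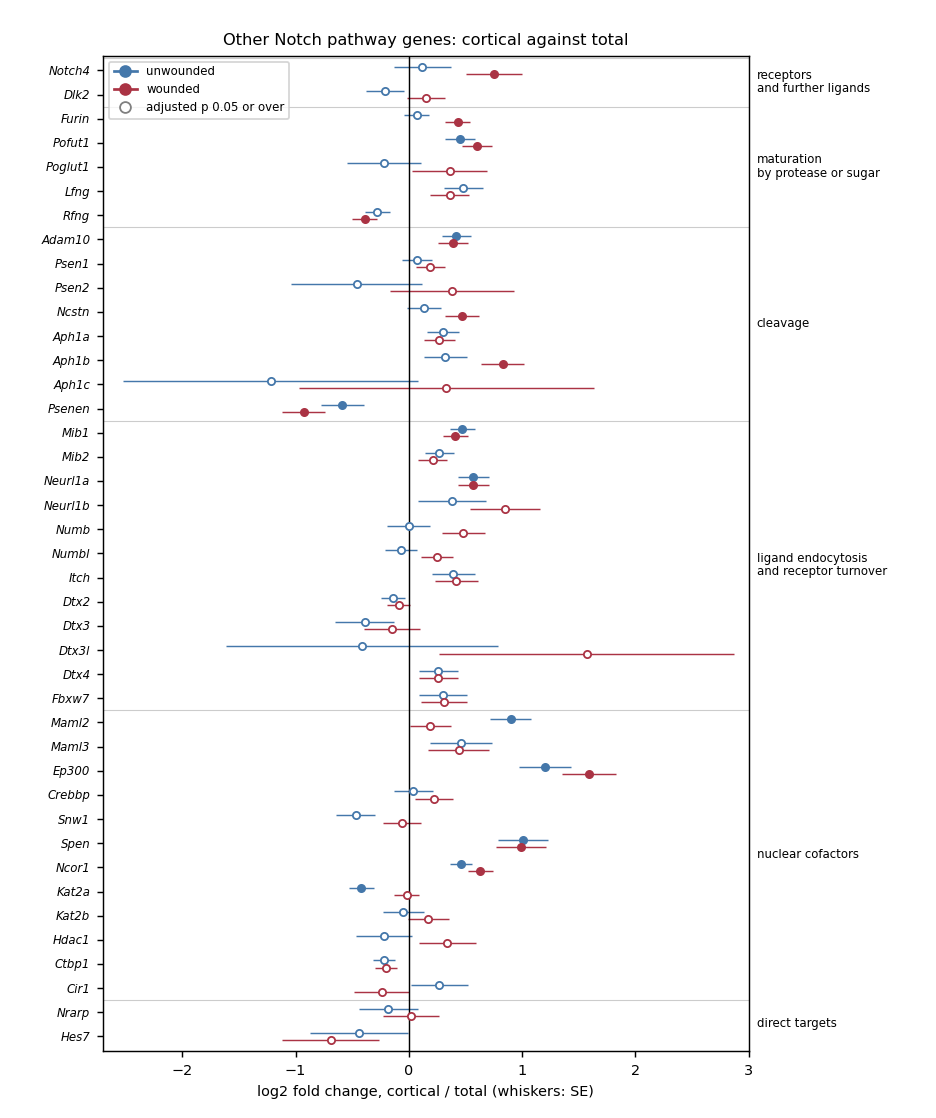
Log2 fold change of the cortical against the total fraction (x axis) for tested genes of the further pathway list (y axis), grouped by role, in unwounded and wounded cells, with the SE as whiskers. Filled points passed at an adjusted p under 0.05, and Ep300 reaches the highest called values, 1.20 and 1.59.

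The genes whose log2 CPM followed the members most closely over the 12 libraries were looked up for Notch1, Jag1 and Jag2 among 8855 protein-coding genes, each averaging 100 counts or more. Closest to Notch1 were Gmcl1, Pip4k2b and Plk2, with Pearson r of 0.978, 0.97 and 0.967. Closest to Jag1 were Gfm2, Rnf145 and Fam83h (0.961, 0.957 and 0.954), and closest to Jag2 were Spag5, Klf13 and Acvr1b (0.983, 0.979 and 0.978). These values are descriptions, since the 12 libraries fall into the 4 groups that also separate the members.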

How the data were processed

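The members, the lists and the alternatives were chosen with earlier results of these data known. Polyadenylated RNA of 12 libraries was sequenced as non-directional libraries, per the labels' protocols. The submitters' processing notes name CASAVA, HISAT2 and the build mm10, and the counting tool is not given in the sources used here. The authors deposited raw counts per gene and FPKM values, each with 1 column per library, and 0 per-sample columns were left unused. Groups and replicate numbers came from the titles.

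Counts were filtered with filterByExpr, scaled by TMM factors (0.831 to 1.10) and fitted in R 4.3.3 with edgeR 4.0.16 in a single quasi-likelihood fit of the 4 group means to all 12 libraries. Each of 5 contrasts was tested two-sided, with Benjamini-Hochberg adjustment over 13571 genes at 0.05. The SE is the log2 fold change divided by the square root of its F value. Log2 CPM used a prior count of 2. No member or gene of the further list shares its symbol with another row.

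Alternatives were median-of-ratios, upper-quartile and library size scaling, DESeq2 1.42.0, limma 3.58.1 (limma-trend on log2 of FPKM plus 1 or 0.1, and voom with library quality weights), no filter, genes averaging 50 counts or more, only the groups compared, the replicate block, subtraction of each library's loess curve (span 0.5) on gene length, with and without the block, and each library left out in turn. Coding lengths are the longest per gene in GENCODE M21 (GRCm38). Of 54409 identifiers found there 98.3% had the same coordinates, as had 9 of the 10 members, and those of Notch3 differed. Gene positions are those of the deposited table. Named genes were all 10 members and, of the further list, the 6 with the lowest adjusted p in any contrast, of which 1 is not reported here or drawn in the figures. Like patterns were sought for Notch1, Jag1 and the member with the lowest adjusted p.

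In simulated counts with 200 genes changed 2-fold in unwounded cortical libraries among 13189 genes, edgeR recovered 54% with 6.09% of its calls false. The length correction left 0 of 2790 false calls of a simulated length bias. That bias was set on gene length, the variable that the correction fits. Its removal therefore does not measure how well the trend on coding length was taken out of the real libraries. Plots were made in python 3.11.15 with matplotlib 3.10.9.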

Additional observations from a re-analysis of the deposited data

How the results depend on the processing

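The number of members called was recomputed under 13 other settings (12 for the interaction) and without each library. In unwounded cells the cortical comparison called 3, against 5 with voom quality weights, 1 with the gene length trend removed, 1 with the replicate block and the length trend removed, and 1 to 4 without 1 library (1 without unwounded total replicate 2, 4 without wounded total replicate 1). In wounded cells it called 5, and 4 to 7 elsewhere. For wounding in the total fraction 1 became 5 with voom weights, 2 with the length trend removed, and 1 to 4 without 1 library. In the cortical fraction 1 became 2 with voom weights, 2 with only the groups compared, and 0 to 2 without 1 library. For the interaction 0 became 1 with DESeq2, 1 with voom weights, 1 with no filter, and 0 to 1 without 1 library. With voom weights the calls over all genes rose too, to 3708, 4441, 5206, 1316 and 855 in the order of these comparisons. Without wounded total replicate 1 they were 3151, 3475, 3502, 1276 and 413, against 1928, 2124, 2116, 337 and 17 with all libraries. With only the groups compared, wounding in the cortical fraction gave 1423 of 12599. Removing the length trend gave 1397 for the unwounded cortical comparison and 2271 for wounding in the total fraction. Leaving out unwounded total replicate 2 gave 949 for the unwounded cortical comparison. The cause of these moves was not tested.

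Signs that turned belonged to values not called in either setting. Scaling by library size alone gave 0.12 for Rbpj in the unwounded cortical comparison. Voom weights gave -0.04 for Hes1 and wounding in the total fraction, 0.11 for Dll1 and wounding in the cortical fraction, and 0.1 for the Hes1 interaction. With the length trend removed, with or without the block, the cortical comparison gave -0.08 for Notch1 in unwounded and -0.01 for Adam17 in wounded cells. Without 1 library, the cortical comparison ran from -0.19 to 0.22 for Rbpj in unwounded cells, and from -0.11 to 0.49 for Hes1 and -0.01 to 0.28 for Adam17 in wounded cells. Wounding in the total fraction ran from -0.73 to 0.01 for Notch2, -0.23 to 0.37 for Hes1 and -0.3 to 0.08 for Maml1. In the cortical fraction it ran from -0.23 to 0.1 for Notch2, -0.21 to 0.02 for Jag1, -0.67 to 0.18 for Dll1, -0.04 to 0.16 for Hes1 and -0.16 to 0.1 for Adam17. The interaction ran from -0.08 to 0.68 for Notch2 and from -0.33 to 0.3 for Hes1. The value of -0.73 for Notch2 was called.

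The labels number the replicates 1 to 3 in each group but do not say that a number marks a shared dish or day. Deviations of same-numbered libraries correlated between -0.0331 and 0.0913, so the numbers were not taken to pair the libraries. Replicate 1 did have the largest share at 0, of genes expected at 10 to 20 counts, in every group. That share was 5.68% and 24.7% in the unwounded total and cortical groups, and 41.2% and 23.7% in the wounded ones. Its cause was not tested. The replicate block gave 2 members called in unwounded and 5 in wounded cells for the cortical comparison, 1 and 1 for wounding and 0 for the interaction, and all-gene calls of 1857, 1985, 2038, 276 and 10, against 1928, 2124, 2116, 337 and 17. In the cortical comparisons 0 of 3 libraries correlated best with their own number, and in the wound comparisons 2 of 3. Over all genes, calls ran from 1327 to 3708, 970 to 4441, 1175 to 5206, 199 to 1423 and 10 to 855 over the other settings, and from 949 to 3151, 1084 to 3475, 1128 to 3502, 108 to 1276 and 4 to 413 without 1 library. The further list ran from 8 to 17, 5 to 20, 3 to 14, 0 to 9 and 0 to 3 over the settings. Dll1, at 37 to 132 counts a library, had the largest SE of the members in every comparison, so its differences were the least well measured.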
